A study of Mus musculus with 36 samples.

Results

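Of the 36 arrays of a time course in mouse astrocyte cultures, 12 came from cultures given vehicle alone and harvested at the times compared here: 4 late arrays (2 at 18 h and 2 at 24 h) and 8 early arrays (3 at 2 h, 3 at 4 h and 2 at 6 h). They were chosen by treatment and hour of harvest, not by any measured value, and the late arrays were set against the early ones across 20637 genes, with each time weighted equally. The study as a whole followed astrocytes of C57B/6 mice, taken from newborn pups, after about 100 nM dexamethasone, a synthetic glucocorticoid, or after vehicle. The source is labelled cortical, while the growth protocol names cortex or hippocampus. Cells were kept in DMEM with fetal bovine serum until about confluent, and RNA was read on Illumina BeadChips. All groups share this strain, age and medium. Late and early vehicle cultures differed in the hours after vehicle was added. The 4 late and 8 early dexamethasone arrays of the same times serve as a second comparison. What the vehicle contained, the clock time of harvest, and whether replicates are separate cultures are not given, so the p-values measure the spread between these samples. Titles of the 8 early vehicle arrays carry a suffix that the late ones, and all other arrays of the series, lack. Its meaning is not given, and suffix and group cannot be told apart.

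Most cells carry a circadian clock in which ARNTL (BMAL1) and CLOCK activate the Per and Cry genes, whose proteins then repress them. In a second loop the nuclear receptors NR1D1 and NR1D2 (REV-ERB) repress Arntl and ROR receptors activate it. Serum, fresh medium and glucocorticoids are known to set the phase of this clock in cultured cells, and astrocytes carry one. Cultured cells also adjust sterol synthesis, growth factor output and division to their medium.

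Levels below are log2 intensities after background correction. A difference is late minus early on that scale with its standard error (SE). A gene is called at a limma p adjusted by the Benjamini-Hochberg method under 0.05. A gene counts as above background on an array at a level over 5.83, and signal over background and the number of arrays limit the precision. Among the 12 arrays, 3 early ones (2 h replicate 1 and both 6 h arrays) belonged to a branch of 12 arrays of the series that clustered apart. No late array did. The median correlation of late arrays was 0.965 with these 3, 0.979 with the other 5 early arrays and 0.993 among themselves. What sets the branch apart is not given, so the comparison was also run without these 3 arrays and with the branch as a block. Without these 3 arrays no 6 h array remains, so that comparison sets late against 2 h and 4 h.

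Late vehicle cultures differed from early ones in 4154 genes (20.1%). Of 20637 genes, 1875 were higher (9.09%) and 2279 lower (11.0%) in late cultures. Without the 3 arrays that stand apart 1014 were higher (4.91%) and 1055 lower (5.11%), and with the branch as a block 2032 were higher (9.85%) and 1921 lower (9.31%). All 3 fits called 882 genes higher (4.27%) and 988 lower (4.79%). The median difference over all genes was -0.03. Single late arrays bear on the count, which was 1766 without 24 h replicate 1, 2129 without 18 h replicate 2 and 2467 without 18 h replicate 1. Genes higher in late cultures included the macrophage genes Lyz2 and Adgre1, complement C3 and the clock genes Tef and Nr1d2. Genes lower in late cultures included Arntl, 9 of 19 sterol genes, 10 of 24 growth factors and 7 of 18 glycolysis genes.

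The core clock differed in a mixed pattern, with the activator Arntl and the repressor Nr1d1 both lower late. Arntl, the partner of CLOCK, had 9.89, 9.89, 10.12 and 10.11 in late cultures, against 10.63, 11.02 and 11.39 (lowest, median, highest) in early cultures. The groups did not overlap, and the difference was -1.01 (SE 0.12, 2.02-fold, limma adjusted p = 7.8e-06). Nr1d1, a receptor that represses Arntl, had 6.12, 6.16, 5.89 and 6.41 late, against 6.91, 7.35 and 7.44 early. Again every late array lay below every early one (-1.09, SE 0.19, limma adjusted p = 0.0003). Both kept their call in all 3 fits.

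The paralog of Nr1d1 went the other way. Nr1d2 had 10.53, 10.79, 10.39 and 10.47 late, against 9.27, 9.85 and 10.37 early, without overlap (0.77, SE 0.20, limma adjusted p = 0.0078). A second Nr1d2 probe, with a lower mean, gave 0.02. Tef, an output factor that binds D-box elements, had 10.52, 10.82, 10.30 and 9.56 late, against 8.68, 9.47 and 9.81 early. The 24 h replicate 2 array lay inside the early range, and the difference was 0.84 (SE 0.20, limma adjusted p = 0.0041). Dbp, the best known D-box output factor, had 12.50, 12.43, 12.06 and 12.22 late, against 11.62, 11.97 and 12.22 early. Its groups overlapped, and its call (0.38, SE 0.10, limma adjusted p = 0.012) was lost without the 3 arrays that stand apart (0.30, adjusted p = 0.099).

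Of the 11 measured activators and output factors of a list of 12, 4 were higher and 2 lower, with a median of 0.06. Over all genes 9.09% were higher and 11.0% lower. Of the 9 measured repressors, kinases and ligases of 12, Csnk1e alone was called, with a median of -0.04. Csnk1e, a kinase that marks PER proteins for decay, was lower (-0.76, SE 0.17, limma adjusted p = 0.0035), but its second probe gave 0.05 (adjusted p = 0.93). Per2 had 10.57, 10.76, 10.93 and 10.80 late, against 10.24, 10.78 and 11.29 early, and did not pass (-0.02, SE 0.12). Per1 (-0.35), Per3 (0.39), Cry2 (0.22), Bhlhe40 (-0.31, limma adjusted p = 0.051) and Csnk1d (0.20) did not pass either, nor did Fbxl21 (-0.04). A further, dim Per1 probe was called (-0.56, limma adjusted p = 0.015), while another was not (-0.39, adjusted p = 0.17). Clock itself (-0.24) and Bhlhe40 (-0.35) passed with the branch as a block. There Clock differed by -0.36, but its second probe gave 0.71 without the block (limma adjusted p = 0.068). Rora gave 0.47 and Rorb -0.13, while Hlf and Npas2 were not above background on any of the 12 arrays. The repressor Ciart gave -0.60 (limma adjusted p = 0.069) by its brightest probe, but 2 further probes of it were called (-0.89 and -1.17). Cry1, Nfil3 and Bhlhe41 were not analysed here.

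**Figure D1:**
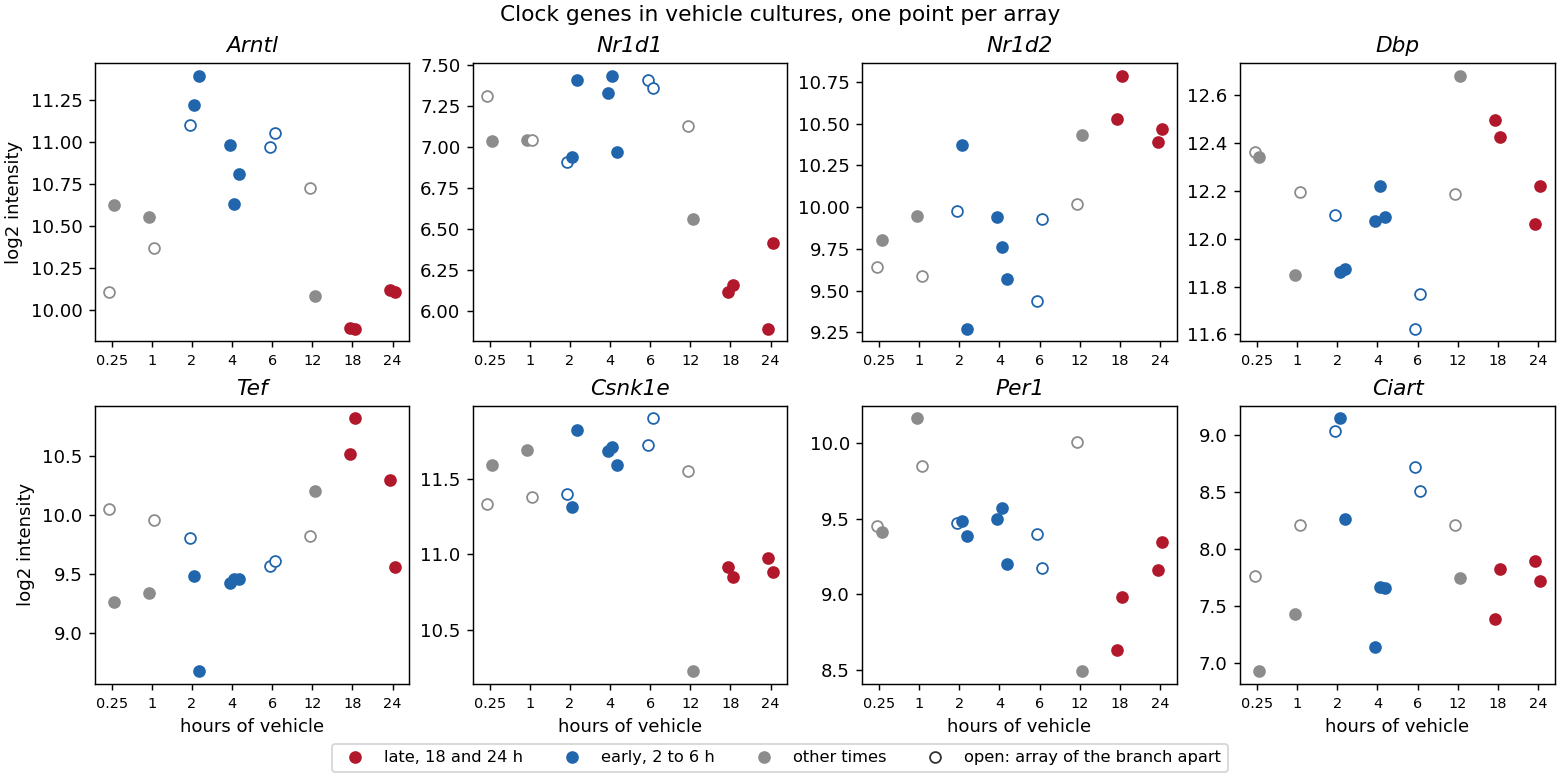
Log2 intensity of 8 clock genes on each of the 18 vehicle arrays, by hours of vehicle (categories, not to scale); points are arrays, red late, blue early, grey other times, and open points belong to the branch apart. Arntl sits at 9.89 to 10.12 late, below all early arrays (10.63 to 11.39), and Nr1d2 at 10.39 to 10.79, above them.

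The promoter windows of a few clock and sterol genes are shown because these genes carry the contrasts above and below and because their windows hold known regulatory letters. Each window is 300 bases of RefSeq sequence on build GRCm38.p6 that spans a transcription start site, written 5′ to 3′ on the gene's strand. Capitals mark CACGTG (the E-box bound by CLOCK and ARNTL) in Tef and Ciart, TAGGTCA (the core bound by ROR and REV-ERB receptors) in Arntl, and TCACCCCA (in sterol elements) in Srebf2. Tef has 2 windows in the table, both with the E-box, and Arntl 2, of which 1 holds the core.
Arntl, chr7:113207261-113207560, plus strand: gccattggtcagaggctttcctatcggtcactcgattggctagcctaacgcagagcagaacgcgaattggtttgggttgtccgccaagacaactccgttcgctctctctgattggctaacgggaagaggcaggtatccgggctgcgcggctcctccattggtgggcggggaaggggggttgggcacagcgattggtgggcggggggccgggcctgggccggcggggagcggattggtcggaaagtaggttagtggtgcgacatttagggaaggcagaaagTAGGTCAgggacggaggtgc
Tef, chr15:81802423-81802722, plus strand: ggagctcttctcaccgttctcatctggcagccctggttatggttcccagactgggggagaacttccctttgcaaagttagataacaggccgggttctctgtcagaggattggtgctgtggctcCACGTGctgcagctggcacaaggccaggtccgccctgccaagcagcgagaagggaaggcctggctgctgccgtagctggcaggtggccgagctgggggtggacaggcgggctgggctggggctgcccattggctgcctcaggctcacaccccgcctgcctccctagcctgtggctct
Ciart, chr3:95882179-95882478, minus strand: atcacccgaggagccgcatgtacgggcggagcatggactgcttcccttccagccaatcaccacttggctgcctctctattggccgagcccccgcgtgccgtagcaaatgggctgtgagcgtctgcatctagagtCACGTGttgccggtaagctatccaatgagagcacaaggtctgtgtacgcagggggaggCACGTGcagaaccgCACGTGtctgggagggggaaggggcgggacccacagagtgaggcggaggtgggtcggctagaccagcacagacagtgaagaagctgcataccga
Srebf2, chr15:82147019-82147318, plus strand: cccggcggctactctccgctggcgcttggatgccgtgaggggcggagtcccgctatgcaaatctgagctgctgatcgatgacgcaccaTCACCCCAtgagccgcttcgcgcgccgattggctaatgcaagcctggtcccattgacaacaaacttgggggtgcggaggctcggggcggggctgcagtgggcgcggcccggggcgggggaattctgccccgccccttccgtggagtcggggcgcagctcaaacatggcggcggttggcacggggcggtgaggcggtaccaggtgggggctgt
Counting both strands, 7.15% of all 32851 windows hold CACGTG, 2.61% TAGGTCA and 1.56% TCACCCCA. Of the 25 windows of 16 measured clock genes, 4 hold an E-box (16%; Ciart with 3 copies, Per1 and Tef) and 1, of Arntl, holds TAGGTCA (4%). Of the 14 windows of 12 measured sterol genes, 3 hold an E-box (21.4%) and 2, both of Dhcr7, hold TAGGTCA (14.3%). Another 1, of Srebf2, holds TCACCCCA (7.14%), which 1 clock window also holds. A match is a description of these letters only.

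Of 19 measured sterol synthesis and uptake genes, 9 were lower in late cultures and none higher (beside 11.0% of all genes lower), with a median of -0.59. The count was 8 without the 3 arrays that stand apart and 13 with the branch as a block. Mvd, which makes isopentenyl diphosphate in the mevalonate pathway, had 7.31, 7.38, 7.47 and 8.09 in late cultures, against 9.21, 9.52 and 9.99 in early cultures. No late array reached the early range (-1.96, SE 0.17, 3.89-fold, limma adjusted p = 2.4e-07). Srebf2, the factor that drives the pathway, had 8.90, 9.03, 9.51 and 9.01 late, against 9.58, 10.20 and 10.54 early, also without overlap (-1.05, SE 0.25, limma adjusted p = 0.0042), a call lost without the 3 arrays that stand apart (-0.87, SE 0.28, adjusted p = 0.0503). A second Srebf2 probe gave 0.08 (limma adjusted p = 0.83).

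Over the whole vehicle series these genes were highest at 2 h to 6 h. These are also the only arrays with the title suffix, so hour and suffix cannot be told apart here. The list's median, relative to each gene's mean over the 12 arrays, was -0.52 to -0.31 at 0.25 h, -0.25 to -0.18 at 1 h, 0.08 to 0.38 at 2 h to 6 h, -0.26 to -0.21 at 12 h and -0.46 to -0.23 at 18 h and 24 h. Mvd had 8.34 and 8.01 at 0.25 h, and 8.34 and 8.83 at 1 h. The 0.25 h arrays thus lay closer to the late arrays than to the early ones for this list.

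Of 24 measured growth factors and neurotrophic factors, 10 were lower and 1 higher late (beside 11.0% and 9.09% of all genes), with a median of -0.27. The same 10 were lower in all 3 fits, as were 4.79% of all genes. The list's median was -0.39 to -0.33 at 0.25 h, -0.15 to 0.01 at 1 h and -0.27 to -0.18 at 12 h. It was -0.36 to -0.12 late and -0.02 to 0.28 early. Artn, a ligand of the GDNF family, had 6.24, 6.45, 6.23 and 6.46 late, against 6.84, 8.19 and 8.95 early (-1.66, SE 0.20, limma adjusted p = 7.6e-06). Pdgfb, a mitogen for glia and pericytes, fell by 1.21 (SE 0.22, limma adjusted p = 0.00051) and the heparin-binding factor Mdk by 1.20 (SE 0.21, adjusted p = 0.00033). A second, dim Pdgfb probe gave 0.03, and none of 3 further Mdk probes was called, the brightest of them giving 0.16 (limma adjusted p = 0.76). Bdnf (-1.07) and Vegfa (-0.75, by 1 of 2 probes) were among the others. Fgf1 was higher (0.62, limma adjusted p = 0.033), and that call was lost without the 3 arrays that stand apart (0.39, adjusted p = 0.28).

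**Figure D2:**
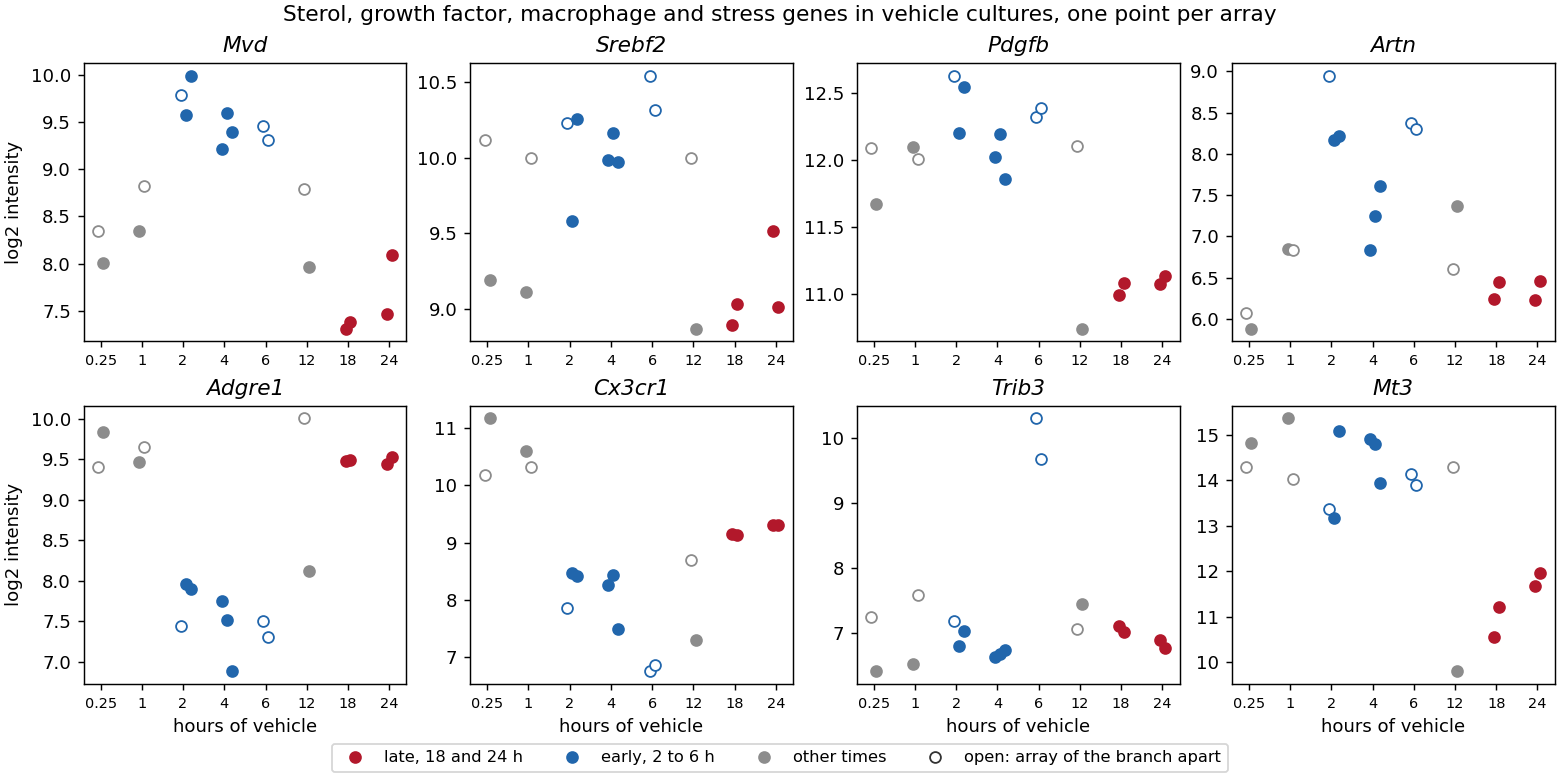
Log2 intensity of 8 genes on each of the 18 vehicle arrays, by hours of vehicle (categories, not to scale); points are arrays, red late, blue early, grey other times, and open points belong to the branch apart. Mvd sits at 7.31 to 8.09 late and 9.21 to 9.99 early, Adgre1 sits at 9.44 to 9.52 late and 6.88 to 7.96 early, and Trib3 stands at 10.31 and 9.68 on the 6 h arrays alone.

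Matrix genes, glycolytic enzymes and pre-ribosome factors also gave more lower than higher calls. Of 27 matrix genes and proteases, 10 were lower and none higher (beside 11.0% and 9.09% of all genes), with a median of -0.36. Without the 3 arrays that stand apart 5 were lower, and the share over all genes was 5.11% rather than 11.0%. Col6a1, a collagen VI chain, fell by 1.10 (SE 0.17, limma adjusted p = 0.00014) by 1 of 2 probes, and Col4a2, of basement membrane, by 0.74 (SE 0.17, adjusted p = 0.0033). Of 18 glycolysis genes, 7 were lower and 1 higher (median -0.29), and 4 were lower without those arrays. The enolase gene Eno1 had 11.42, 11.10, 10.91 and 11.92 late, against 11.66, 13.04 and 13.48 early, with 24 h replicate 2 inside the early range (-1.53, SE 0.38, limma adjusted p = 0.0055). The pyruvate kinase gene Pkm fell by 1.26 (SE 0.26, limma adjusted p = 0.0014), while its second probe gave -0.60 (adjusted p = 0.31). Of 12 ribosome biogenesis genes, 4 were lower, led by Rrp9, which binds the U3 RNA (-1.56, SE 0.23, limma adjusted p = 6.1e-05), and Ncl (nucleolin) was higher (0.51, adjusted p = 0.014).

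Of 19 mitosis genes, 6 were lower and none higher (beside 11.0% and 9.09% of all genes), with a median of -0.29, and 2 were lower without the 3 arrays that stand apart (beside 5.11%). Relative to each gene's mean over the 12 arrays, the list's median was -0.64 to -0.55 at 0.25 h and -0.55 to -0.45 at 1 h. It was -0.03 to 0.20 at 2 h to 6 h, -0.37 to -0.16 at 12 h and -0.29 to -0.04 late. The 2 h to 6 h arrays, the only ones with the title suffix, were thus the highest of the vehicle series. Ccnb1, the mitotic cyclin B1, had 11.31, 11.25, 11.29 and 11.48 late, against 11.56, 11.86 and 12.12 early (-0.52, SE 0.12, limma adjusted p = 0.0031). Aurkb, a kinase of chromosome segregation, fell by 0.53 (SE 0.14, limma adjusted p = 0.0081). Of 22 DNA replication genes, 4 were lower and 2 higher, near the shares over all genes (median -0.15). Gins1, of the replicative helicase, fell by 0.98 (SE 0.20, limma adjusted p = 0.0012) and thymidine kinase Tk1 by 0.65 (SE 0.16, adjusted p = 0.005). Rrm1 (0.49, with 1 of 2 further probes called) and Cdt1 (0.31) were higher, and neither call held without the 3 arrays that stand apart. The CDK inhibitor Cdkn1a was lower (-0.61, SE 0.11, limma adjusted p = 0.0005) by 1 of 3 probes, a call also lost without them (-0.35, adjusted p = 0.072).

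Several lists gave fewer calls without the 3 arrays that stand apart, as did all genes (5.11% rather than 11.0% lower). Of 19 amino acid stress genes, 9 were lower and none higher (median -0.38), but without those arrays 3 were lower and the median was -0.03. Trib3, a pseudokinase induced by amino acid shortage, had 7.11, 7.01, 6.90 and 6.77 late. Its early arrays ran from 6.62 through a median of 6.91 up to 10.31. The 6 h arrays had 10.31 and 9.68 and the other 6 early arrays 6.62 to 7.18, and the call (-0.95, limma adjusted p = 0.0017) became 0.15 (adjusted p = 0.77) without the 3 arrays. The seryl-tRNA synthetase Sars and the factor Cebpb kept their calls (-1.14, SE 0.18, and -1.11, SE 0.23; limma adjusted p = 0.00013 and 0.0015). Of 18 immediate early genes, 5 were lower and 1 higher (median -0.48), and only Jund and Egr1 remained called without the 3 arrays. Egr1 had 12.44, 12.48, 12.36 and 12.32 late, against 10.98, 11.44 and 11.81 early, without overlap (0.96, SE 0.27, limma adjusted p = 0.014). At 1 h it had 14.38 and 14.35. The small heat shock protein gene Hspb1 fell by 1.30 (SE 0.23, limma adjusted p = 0.00045), and all 4 called YAP and serum response targets lost their calls without the 3 arrays.

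Many of the largest rises were of macrophage genes. The largest rises and falls were picked only from called genes whose groups did not overlap. Lyz2, the lysozyme of myeloid cells, had 11.52, 11.49, 11.52 and 11.69 in late cultures, against 8.58, 9.43 and 9.98 in early cultures, without overlap (2.20, SE 0.26, 4.58-fold, limma adjusted p = 5.4e-06). Lyz1, a near-identical copy whose signal may not be separate, gave 1.98. Adgre1, a surface receptor that marks macrophages, had 9.48, 9.49, 9.44 and 9.52 late, against 6.88, 7.51 and 7.96 early (1.96, SE 0.23, limma adjusted p = 5.4e-06). The formyl peptide receptor gene Fpr2 had 7.43, 7.29, 7.38 and 7.51 late and was above background on none of the 8 early arrays, so it was at least 2.97-fold higher late (limma adjusted p = 8.6e-07). Cd52 (1.81), Ms4a7 (1.72), Fcrls (1.55) and the chemokine Ccl4 (1.52), all expressed in macrophages, did not overlap between groups either. Ch25h, which makes 25-hydroxycholesterol, had 10.77, 10.74, 10.59 and 10.93 late, against 8.43, 9.09 and 9.46 early (1.71, SE 0.24, limma adjusted p = 3.9e-05).

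Not all markers of these cells moved. Of 17 measured microglia markers, 5 were higher and none lower (beside 9.09% of all genes higher), with a median of 0.44, and 3 were higher without the 3 arrays that stand apart. The fractalkine receptor gene Cx3cr1 (1.52, SE 0.24, limma adjusted p = 0.00015), the protease gene Ctss (1.16, adjusted p = 0.0062), Fcer1g (1.09, adjusted p = 0.013) and Aif1 (1.01, adjusted p = 0.0038) were among those called. The receptor genes Csf1r (0.18), Trem2 (-0.17) and P2ry12 (0.20) did not pass, nor did C1qa (-0.11). The summed intensity of the 17 markers was 9565 to 12268 late and 4741 to 8336 early, without overlap, and none of the 17 lay at background on all 12 arrays. Ptprc, the leukocyte antigen CD45, was above background on 1 of 4 late and 1 of 8 early arrays. In vehicle cultures at 0.25 h and 1 h the list's median stood 1.77 to 2.25 above the mean of the 12 arrays, compared with 0.15 to 0.52 late and -0.55 to 0.14 early. At 12 h it was 1.92 on replicate 1 and -0.55 on replicate 2. The oligodendrocyte lineage list moved alike, at 1.05 to 1.57 at 0.25 h and 1 h and, at 12 h, at 1.56 on replicate 1 and -0.25 on replicate 2. In such bulk RNA, fewer cells of a type and less RNA per cell cannot be told apart. The part of these cells in the rises above was not tested.

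Some complement and secreted reactive genes were higher late. C3, the central complement protein, had 12.18, 12.20, 12.48 and 12.65 late, against 10.40, 10.78 and 11.35 early, without overlap (1.61, SE 0.14, 3.05-fold, limma adjusted p = 1.8e-07). Of 12 complement and antigen presentation genes, C3, C4b (0.53, by its brightest of 3 probes alone) and B2m (0.27, by 1 of 2 probes) were higher and none lower (beside 9.09% of all genes higher). Lcn2, a lipocalin of reactive astrocytes, had 8.10, 7.60, 7.93 and 7.83 late, against 5.92, 6.36 and 6.92 early (1.42, SE 0.19, limma adjusted p = 2.6e-05). Over 31 reactive astrocyte genes, 5 were higher and 7 lower (beside 9.09% and 11.0% of all genes), with a median of -0.03. Without the 3 arrays that stand apart 4 were higher and 2 lower (beside 4.91% and 5.11%). Of 18 interferon-stimulated genes 2 were higher, near the share over all genes, Oasl2 (0.80) and Irf1 (0.40, by 1 of 4 probes, another giving -0.27). Of 15 insulin and FoxO targets 5 were higher, led by Sesn3 (0.66), and 2 without the 3 arrays that stand apart. Of 20 cytokines and chemokines 2 were higher, Ccl4 and Ccl3 (1.33), and 5 lower, Il11 (-0.97) and Lif (-0.73) among them. Without the 3 arrays that stand apart 4 were higher and 2 lower.

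**Figure D3:**
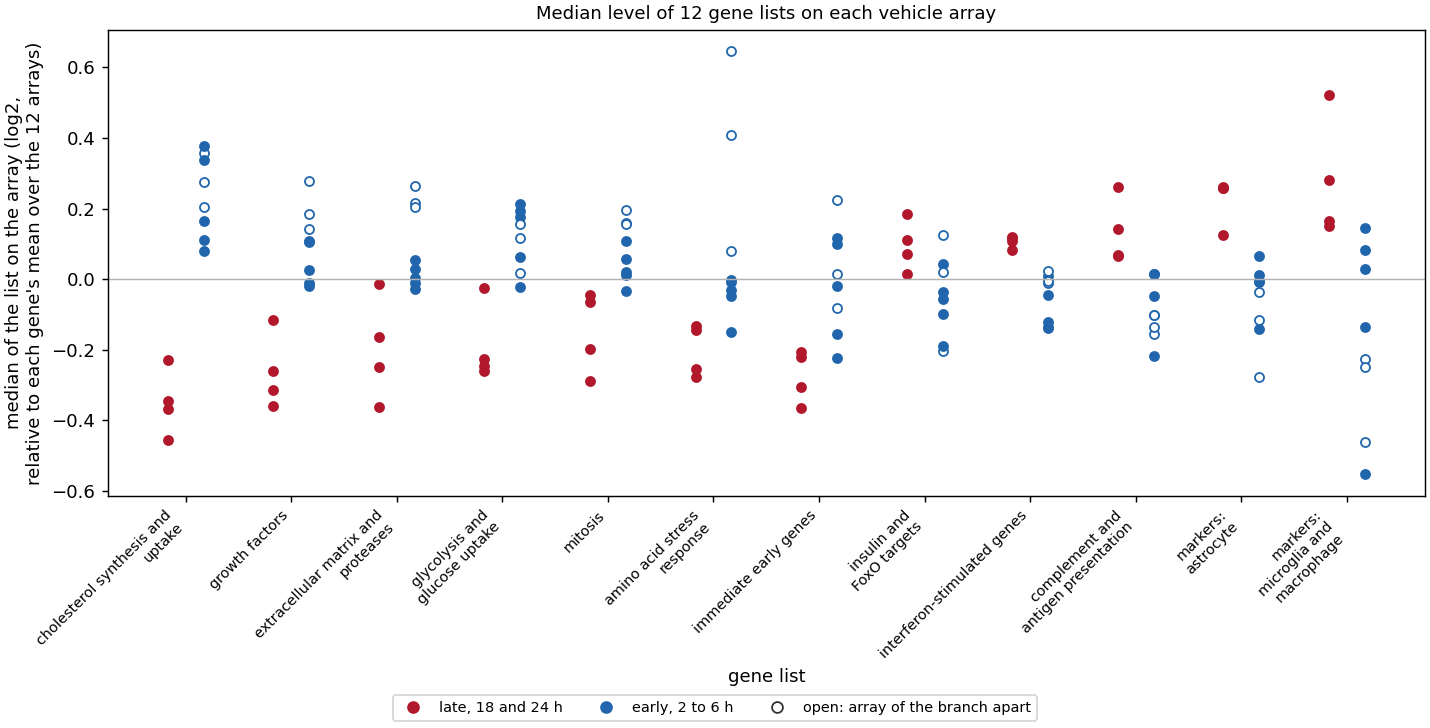
Median level of 12 gene lists on each of the 12 vehicle arrays (log2, relative to each gene's mean over the 12); points are arrays, late left in red and early right in blue, open for the branch apart. The sterol list runs from -0.46 to -0.23 late and 0.08 to 0.38 early, and the microglia list from 0.15 to 0.52 late and -0.55 to 0.14 early.

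Astrocyte markers were above background on all 12 arrays for 13 of 16 genes. So were 15 of 17 microglia, 5 of 6 ependymal and 8 of 9 fibroblast, meningeal and pericyte markers. The counts were 6 of 9 for neuron, 7 of 14 for oligodendrocyte lineage and 2 of 9 for endothelial markers. Such a count alone does not identify the cells. Of the 16 astrocyte markers, 6 were higher and Gfap was lower (beside 9.09% and 11.0% of all genes), with a median of 0.32. Without the 3 arrays that stand apart 2 were higher (beside 4.91% of all genes), Mlc1 and Gja1. Relative to each gene's mean over the 12 arrays, the list's median was 0.13 to 0.26 late and -0.28 to 0.07 early. It was 0.46 to 0.48 at 0.25 h and at 1 h, and 0.29 to 0.54 at 12 h. The late arrays thus lay above the early ones but below those of the other times. Mlc1, a membrane protein of astrocyte endfeet, had 7.58, 7.47, 7.65 and 7.62 late, against 5.93, 6.49 and 7.06 early (1.08, SE 0.16, limma adjusted p = 5.5e-05). Gja1, the main connexin of astrocyte gap junctions, had 14.63, 14.59, 14.56 and 14.48 late, against 13.91, 14.09 and 14.23 early (0.49, SE 0.10, limma adjusted p = 0.0016). The water channel gene Aqp4 was called (0.79, limma adjusted p = 0.027), but gave 0.10 (adjusted p = 0.89) without the 3 arrays. Gfap, the intermediate filament of astrocytes, had 11.63, 11.33, 11.33 and 11.92 late, against 12.50, 13.21 and 14.22 early (-1.78, SE 0.49, limma adjusted p = 0.012). Its second probe gave 0.48 (adjusted p = 0.60), so the probes differ in sign.

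Among other cells, 2 of 14 oligodendrocyte lineage markers were higher and none lower (beside 9.09% and 11.0% of all genes). Pdgfra, a receptor of their precursors, had 10.03, 9.24, 9.49 and 9.54 late, against 7.42, 8.16 and 8.85 early (1.57, SE 0.35, limma adjusted p = 0.0027), although a second, dimmer probe gave -0.22. None of 9 neuron markers was called, the largest difference being that of Dcx (-0.52). Of 9 endothelial markers, Esam (-0.85) and Flt1 (-0.48) were lower, and 2 of the 9 lay above background on all 12 arrays. Of 6 ependymal markers, Ccno (0.67) and Mlf1 (0.49) were higher, neither of them without the 3 arrays that stand apart.

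The largest falls were of genes with varied roles and wide spread. Mt3, a zinc-binding metallothionein of brain, had 10.56, 11.22, 11.67 and 11.97 late, against 13.17, 14.04 and 15.08 early (-2.80, SE 0.61, 6.94-fold, limma adjusted p = 0.0022). Scaf1, an SR-related splicing factor, had 6.52, 6.35, 6.35 and 7.23 late, against 8.38, 9.30 and 10.23 early (-2.70, SE 0.51, limma adjusted p = 0.00068). The groups did not overlap for either, as the rule that named them required. On the 12 h arrays, Mt3 stood at 14.30 on replicate 1 and 9.80 on replicate 2, and Gfap at 14.36 and 11.60, so a single time held both levels.

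Next came Ap2a1, an endocytic adaptor subunit (-2.60), the fibronectin receptor chain gene Itga5 (-2.50), the microtubule linker gene Clip2 (-2.39) and Mical2, which acts on actin (-2.20). Zfp469 (-2.18, SE 0.22, limma adjusted p = 9.9e-07), the actin nucleator subunit gene Arpc4 (-2.01), Foxp4 (-2.01) and the splicing gene Sf3b4 (-1.97) followed. Second probes were called lower too for Ap2a1, Itga5 and Foxp4, and were not called for Clip2, Mical2, Arpc4 and Sf3b4. The secreted neuropeptide precursor gene Vgf had 6.86, 6.74, 6.83 and 7.26 late, against 7.46, 8.41 and 10.67 early (-1.97, SE 0.23, limma adjusted p = 4.4e-06). Its 2 highest arrays were the 6 h ones, and without the 3 arrays that stand apart the difference was -1.24. The neuronal pentraxin gene Nptx2 fell by 1.96, Psme3 by 1.90, and Nf1, above background on none of the late arrays, was at least 2.76-fold lower (limma adjusted p = 0.009).

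Among the 15 largest rises were also genes outside the immune system. Ift74, of intraflagellar transport, gave 1.70, a call lost without the 3 arrays that stand apart (1.16, limma adjusted p = 0.14). Maats1, a cilium gene, gave 1.54 (SE 0.17, limma adjusted p = 2.1e-06). Of 87 called genes named by rule that have a further probe, 58 have one that was not called or had the other sign. Beside those described with the genes, this holds for a further probe of Fcrls, Lyz1, Ift74, Aqp4, Aif1, Ncl, Tk1, Trib3 and Fosl2. In 1 of the 87 genes a further probe was called in the other direction (-0.62 by the main probe, 1.05 by the further one). Over all genes, the 4 late arrays lay above all 8 early arrays for 1083 genes (5.25%) and below them for 1474 (7.14%). Of these, 919 (4.45% of all genes) were also called higher and 1268 (6.14%) called lower.

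**Figure D4:**
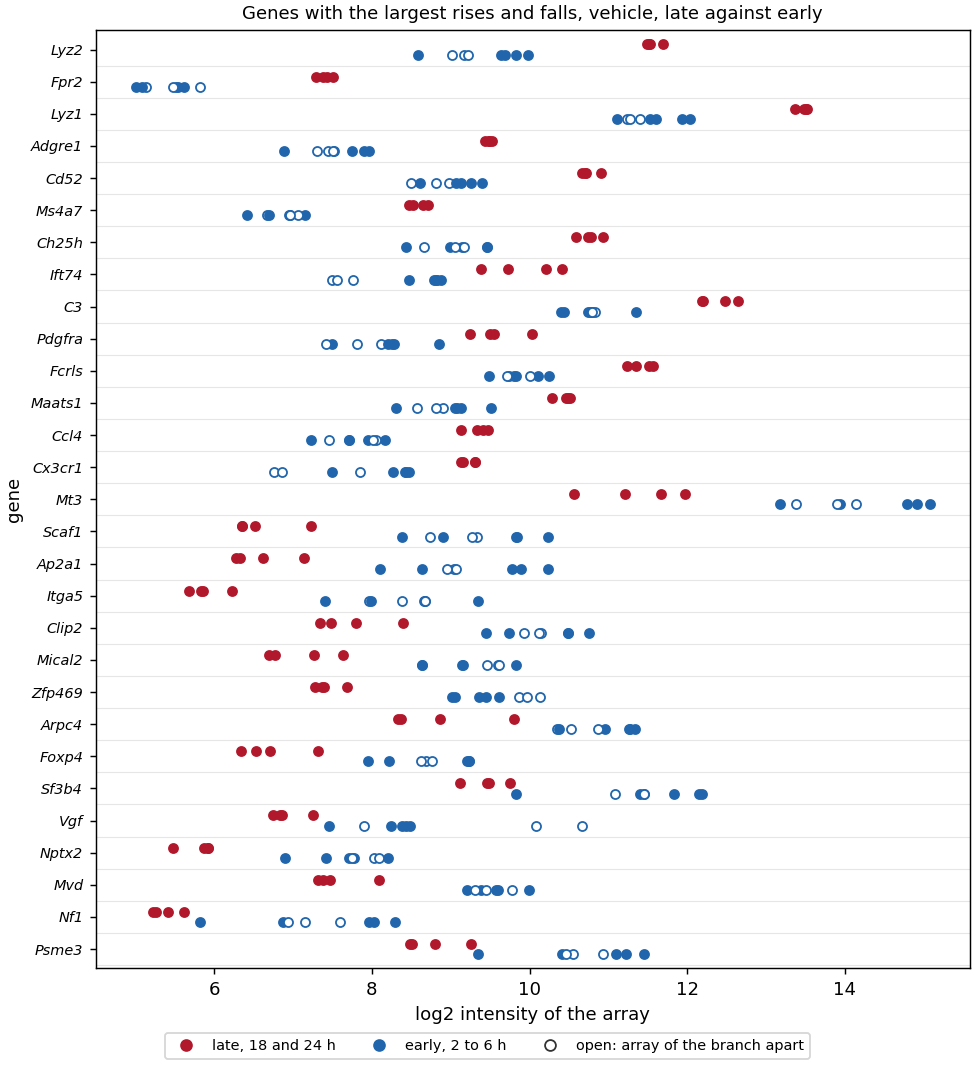
Log2 intensity on each of the 12 vehicle arrays for 14 of the largest rises and 15 of the largest falls; points are arrays, late in red above and early in blue below within each row, open for the branch apart. No row overlaps, since the genes were chosen that way; the early arrays of Mt3 run from 13.17 to 15.08 and the late from 10.56 to 11.97.

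Within the late group, no gene differed between 24 h and 18 h by limma, while 536 had an unadjusted p under 0.05 (2.60%). With array weights 132 were called. Within the early group, 231 genes (1.12%) varied across 2 h, 4 h and 6 h. Chac1, which degrades glutathione under amino acid stress, had 8.79, 8.70 and 8.92 at 2 h, 9.55, 9.47 and 9.22 at 4 h, and 11.85 and 11.36 at 6 h (F-test, limma adjusted p = 6.2e-09). Trib3 (limma adjusted p = 3.5e-07) and the mitochondrial folate enzyme gene Mthfd2 (adjusted p = 0.00027) were also highest at 6 h. Both 6 h arrays belong to the branch apart, as does 2 h replicate 1, which had 8.79 for Chac1. The count was 19 without 6 h replicate 1, 50 without 6 h replicate 2 and 557 with the branch as a block.

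Dexamethasone cultures of the same hours share no arrays with the vehicle comparison, though the spread of each gene was estimated jointly. In dexamethasone too, 2 h replicate 1 and both 6 h arrays belong to the branch apart, and no late array does. The branch thus falls on the early side in both treatments, and its part in the overlaps below was not tested. Of the 1875 genes higher late in vehicle, 1244 were also higher late in dexamethasone (66.3%, or 50.1% of the 2484 higher there, which are 12.0% of all genes), and 35 were lower. Of the 2279 lower, 1534 were also lower (67.3%, or 50.6% of the 3030 lower there, 14.7% of all genes), and 19 were higher. Lyz2 (2.20 in vehicle, 2.02 in dexamethasone), C3 (1.61 in both) and Mvd (-1.96 and -1.43) differed late from early in vehicle as in dexamethasone, and their difference between treatments did not pass. The difference between treatments was called for 626 genes (3.03%), 416 above 0 (2.02%) and 210 below (1.02%). As a block, the branch raised this to 1072. The dexamethasone arrays of these times lack the title suffix of the early vehicle arrays, so this difference carries the suffix too and the 2 cannot be told apart.

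Clock genes were among those that differed. Arntl was lower late in vehicle and higher late in dexamethasone (-1.01 and 0.69, difference -1.70, SE 0.18, limma adjusted p = 6.8e-07). Dbp (0.38 and -0.74, difference 1.11, limma adjusted p = 1.7e-05) and Nr1d2 (0.77 and -0.37, difference 1.14, adjusted p = 0.021) went the other way. Ciart (-0.60 and -2.59, difference 1.99, limma adjusted p = 0.00034) and Per2 (-0.02 and -0.96, difference 0.94, adjusted p = 0.00072) fell late in dexamethasone and did not pass in vehicle. Within the late group Dbp had 12.50 and 12.43 at 18 h and 12.06 and 12.22 at 24 h in vehicle. In dexamethasone it had 9.37 and 9.17 at 18 h and 11.46 and 11.25 at 24 h. Nr1d1 had 6.12 and 6.16 at 18 h and 5.89 and 6.41 at 24 h in vehicle, against 5.46 and 5.46 at 18 h and 6.94 and 7.05 at 24 h in dexamethasone. Arntl in dexamethasone had 11.58 and 11.50 at 18 h and 10.50 and 10.80 at 24 h, against 10.11 to 10.73 early. Nr1d2 there had 8.42 and 8.15 at 18 h and 10.53 and 10.39 at 24 h, against 9.2 to 10.4 early. Each late mean thus joins 2 times. For Dbp and Nr1d1 the 18 h and 24 h arrays lay farther apart in dexamethasone than in vehicle, a difference that was not tested.

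The largest differences between treatments were of other genes. The vesicle GTPase gene Rab15 had 9.40, 9.50, 9.26 and 9.07 late and 7.57, 8.37 and 8.71 early in vehicle (1.14, SE 0.14), against -1.26 in dexamethasone (difference 2.40, limma adjusted p = 2.1e-08). The extracellular glutathione peroxidase gene Gpx3 was lower late in vehicle (-1.26, SE 0.31) and higher in dexamethasone (2.17; difference -3.42, limma adjusted p = 1.2e-05). For Slc45a3 (-0.47 and -3.33), Dio2 (0.17 and -1.93), Galnt15 (0.11 and 2.83) and Cldn11 (0.33 and 2.87) the change lay mainly in dexamethasone. A further Galnt15 probe was called higher late in vehicle (0.66, limma adjusted p = 0.0026), and others were not (-0.08 and -0.29). Mitosis genes gave 6 lower of 19 in vehicle and 19 of 19 in dexamethasone (beside 11.0% and 14.7% of all genes). The difference was called for 17 of them (beside 3.03%). DNA replication genes gave 4 lower of 22 in vehicle and 22 of 22 in dexamethasone, with 18 called for the difference. No sterol gene was called for the difference, near the share over all genes (3.03%). Of the 19, 9 were lower in vehicle and 8 in dexamethasone.

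**Figure D5:**
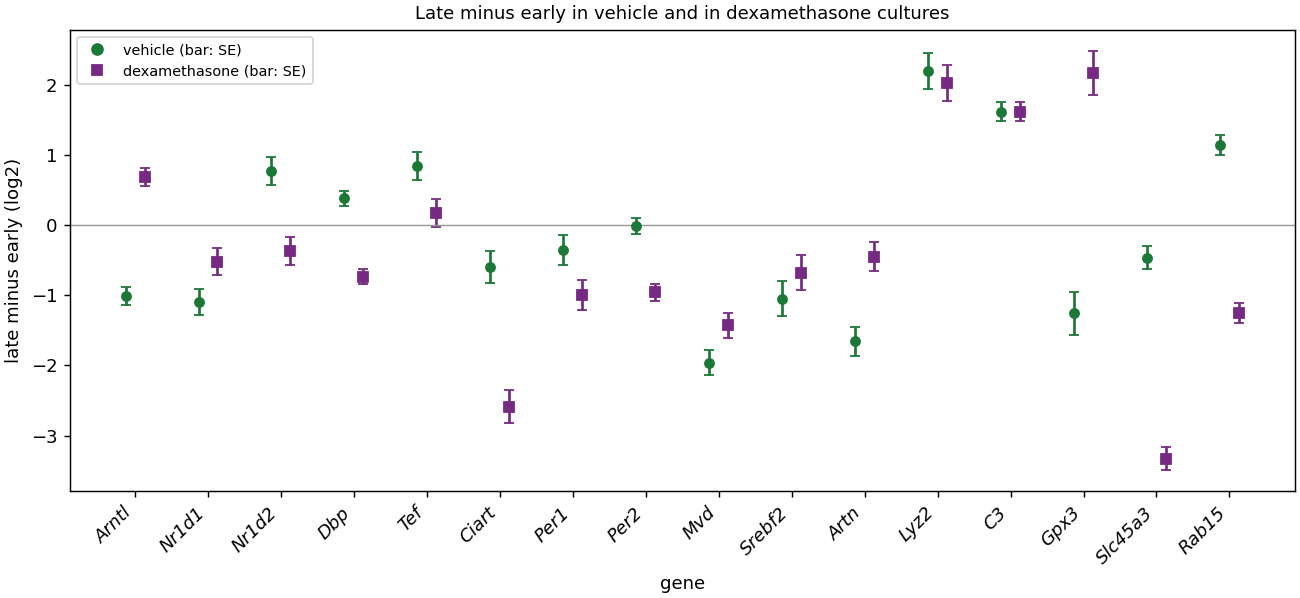
Late minus early (log2) in vehicle (green circles) and dexamethasone (purple squares) for 16 genes, bars showing the standard error. Arntl stands at -1.01 in vehicle and 0.69 in dexamethasone, while C3 stands at 1.61 in both.

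As a description over the 12 vehicle arrays, the genes most like Arntl were Cebpb (Pearson r = 0.973), Acsl4 (0.962), Pcyt2 (0.952), Mapk6 (0.950) and Pdgfb (0.947). Among those most like Dbp were Churc1 (0.935), Glrx (0.895), Tnrc6b (0.889) and A930005H10Rik (0.881). The 12 arrays share 5 times, the late and early groups and the branch apart.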

How the data were processed

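The deposited intensities are on a linear scale, run from 44.8 to 49460.6, and had been quantile normalized between arrays by the authors, as the nearly identical sorted columns show. GenomeStudio was used, per the submitters' processing notes, with no version given in the sources used here. Each array was corrected with normexp (offset 16) and log2 transformed. Background was set at the 99th percentile of a mirrored background distribution, an intensity of 91.7 (5.83 after correction), which 51.4% to 51.5% of probes exceeded per array. Of 45281 probes, 29540 were above it on at least 2 arrays. The probe with the highest mean was kept for each of 20637 listed symbols, of which 12031 were current, 3953 were updated through RefSeq and 4653 were unmatched. For lack of columns that match a sample label, 72 columns of raw intensity and detection p were not used. Levels of different probes are not compared.

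limma 3.58.1 in R 4.3.3 fitted 16 group means (treatment and time) over all 36 arrays, with 20 residual degrees of freedom, and p-values were adjusted over all 20637 genes. Python 3.11.15 and matplotlib 3.10.9 were used for motif searches and figures. The fit was tested on simulated data. Genes were named by rule: the 15 largest rises and falls among called genes without overlap, all clock genes, up to 4 called genes each way in every other list, the 4 strongest across early times, the 4 largest each way between treatments and the 5 most like Dbp and Arntl. Bdnf, Csf1r, Trem2, P2ry12, C1qa and Ptprc, and the single genes shown at other times, were added after their values were seen. Some genes that the rule names are not reported here. Members and the 34 lists (548 of 604 symbols measured) were chosen with earlier results of these data known. Alternatives covered background correction, filters, variance, weights, arrays in the fit, times, single arrays and the branch apart.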

Additional observations from a re-analysis of the deposited data

Results flagged for a closer look

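Single arrays stood apart within a group of 4 or 8 for 10 of the 108 groups of values tested, where chance gives about 1 in 20. Among late arrays, 24 h replicate 2 had a median of -0.026 for the glycolysis list (the others -0.26 to -0.23) and 0.072 for the unfolded protein response list (the others -0.13 to -0.11). On 24 h replicate 1 the astrocyte list had 0.13 (the others 0.26) and the neuron list 0.075 (the others -0.11 to -0.09). Npas2, not above background, had 4.81 on 18 h replicate 1. Among early arrays, 2 h replicate 3 was low for the clock activator list (-0.21), Tef (8.68) and Npas2 (4.45). Rora had 8.60 on 2 h replicate 1, and the respiratory chain list 0.13 on 4 h replicate 1.

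Late minus early differed between vehicle and dexamethasone by limma for further named genes. The difference, vehicle minus dexamethasone, was above 0 for Slc45a3 (2.86), Rab15 (2.40), Ccno (2.11), Dio2 (2.10), Ciart (1.99), Cd52 (1.23), Ch25h (1.21), Nr1d2 (1.14), Dbp (1.11) and Per2 (0.94). It was below 0 for Gpx3 (-3.42), Galnt15 (-2.71), Cldn11 (-2.54), Arntl (-1.70) and Npas2 (-1.16). Cd52 was higher late by 1.81 in vehicle, against 0.58 in dexamethasone, and Ch25h by 1.71 against 0.50. Npas2 was above background on none of the 12 vehicle arrays, late or early.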

How the results depend on the processing

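Changing the background correction, the filter on dim probes or the variance model moved no count of calls by 1.5 times. The late minus early vehicle count (4154) was 7992 with array weights, 2338 with a 1.5-fold change required, 1819 with 5 time means as 2 groups (5697 genes at an unadjusted p under 0.05), 781 with 24 h alone, 1229 against 2 h alone and 1828 against 4 h alone. Leaving out single arrays gave 1766 to 4156, with 2467 and 2129 without 18 h replicates 1 and 2 and 1766 without 24 h replicate 1. In alternatives chosen after seeing the data, it was 2069 without the 3 early arrays that stand apart. The difference between treatments (626) was 1517 with array weights and 1072 with the branch as a block, and 428 to 655 without single arrays. The dexamethasone count (5514) was 3834 to 5728 without single arrays. The 24 h against 18 h count was 132 with array weights and 0 without any single array. The count across 2 h, 4 h and 6 h (231) was 3560 with array weights, 73 with 18 vehicle arrays, 627 with 12, 557 with the branch as a block and 19 to 191 without single arrays (121 without 2 h replicate 2, 150 and 149 without 4 h replicates 1 and 2, and 19 and 50 without 6 h replicates 1 and 2). Fosl2 reversed to 0.20 and Trib3 to 0.27 against 4 h alone, and Trib3 to 0.15 without the 3 arrays. The cause of these changes was not tested. Over named genes and list medians, the alternatives other than single arrays gave 3774 values with the same call, 587 that lost it, 21 that gained it, 100 that moved and 3 reversed.

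Same-numbered arrays showed no clear pairing, with correlations of their deviations between -0.18 and 0.25 over 20 pairs, 11 of them below 0. Between groups of 2 arrays both replicates give the same correlation, so the 20 are not all separate values. With a replicate block the counts were 4100 in vehicle, 5485 in dexamethasone, 615 for the difference, 0 for 24 h against 18 h and 242 across early times. Precision is limited by 2 arrays at each late time, by signal over background for dim probes, and by quantile normalization, which removes any shift shared by all genes.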
